A study of Mus musculus with 6 samples.

Results

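The suppressor of cytokine signalling (SOCS) family consists of 8 genes, Cish and Socs1 to Socs7. All 8 were found by their symbols among the 48005 gene entries of the count table, each as an entry of its own that is not joined with another gene. They were measured by sequencing of polyadenylated RNA from microglia, macrophages that live in the brain, kept in culture. The cells of all 6 samples came from CD1 mice, and the labels name no altered allele. The 3 control samples (A, B and C) received the control treatment, whose content the labels do not give. The 3 EV-treated samples (A, B and C) received extracellular vesicles (EVs, small membrane sacs released by cells), which had been spun down in several steps from a monolayer of neural stem cells (NSCs). These NSCs were of the subventricular zone. The labels give no dose, duration or age of the mice. They also do not say whether the samples came from separate cultures, so p-values measure only how far these 6 samples spread, and that spread may be technical.

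SOCS proteins are feedback inhibitors of cytokine receptors. A cytokine brings JAK kinases together at its receptor, the kinases activate STAT transcription factors, and STATs switch on several SOCS genes, whose proteins then act on the same receptor. Each protein binds phosphorylated tyrosines through an SH2 domain, and its SOCS box recruits elongins and a cullin to mark the bound partner for degradation; Socs1 and Socs3 also block JAK kinases directly. In microglia and other macrophages, Socs1 is known as a brake on interferon signalling and Socs3 as a brake on signalling by interleukin 6.

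The upstream sequences of Cish, Socs3 and Socs1 are shown because these genes had the highest fold changes of the family, so they were picked by outcome. Short promoter motifs were searched, and whether they take part in these fold changes was not tested. Of the family, the entries of 4 genes (Cish, Socs1, Socs3 and Socs4) in the RefSeq promoter table (GRCm38.p6) were used. Socs2, Socs5 and Socs7 had no entry, and Socs6 was left out of the search. The windows of 300 bases were searched on both strands for the STAT half-site pair TTCNNNGAA, its wider form TTCNNNNGAA, the interferon response core GAAANNGAAA and the AP-1 site TGANTCA. The NF-kB consensus was searched on the strand of the gene only. Each run below reads 5′ to 3′ on the strand of its gene, begins 250 bases before the RefSeq start and has the motif matches in capitals. It ends at the base before that start, except in Cish, where it goes on to the end of the last match.
Cish (chr9:107296409-107296678, plus strand): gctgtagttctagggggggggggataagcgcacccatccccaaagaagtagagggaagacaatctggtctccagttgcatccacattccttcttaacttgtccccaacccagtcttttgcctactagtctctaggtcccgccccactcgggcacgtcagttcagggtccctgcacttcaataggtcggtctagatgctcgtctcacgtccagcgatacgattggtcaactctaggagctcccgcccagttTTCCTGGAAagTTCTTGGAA
Socs3 (chr11:117969367-117969616, minus strand): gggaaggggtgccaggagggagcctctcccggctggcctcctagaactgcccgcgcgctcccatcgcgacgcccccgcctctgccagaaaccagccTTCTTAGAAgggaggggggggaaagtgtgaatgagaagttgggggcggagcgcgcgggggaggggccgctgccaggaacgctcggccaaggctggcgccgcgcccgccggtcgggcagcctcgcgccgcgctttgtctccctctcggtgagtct
Socs1 (chr16:10785537-10785786, minus strand): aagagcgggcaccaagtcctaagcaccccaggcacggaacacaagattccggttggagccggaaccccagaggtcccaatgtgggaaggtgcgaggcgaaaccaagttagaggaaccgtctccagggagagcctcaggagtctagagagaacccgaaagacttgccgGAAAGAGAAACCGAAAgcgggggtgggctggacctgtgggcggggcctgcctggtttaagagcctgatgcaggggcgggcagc

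Cish held 2 STAT half-site pairs, TTCCTGGAA and TTCTTGGAA, at bases 1 to 9 and 12 to 20 counted from the RefSeq start. Of all 32851 promoter windows in the table, 8.30% held at least 1 such match and 0.457% held at least 2. In Socs3 there was 1 match, TTCTTAGAA, from 154 to 146 bases before the start. Socs1 had 2 matches of the interferon response core, GAAAGAGAAA and GAAACCGAAA, which overlap by the letters GAAA, and 3.44% of all windows held this core. Socs4 had no match to any of the 5 motifs as searched. The wider STAT form (6.95% of windows) and the AP-1 site (7.81%) were in none of the 4 windows. On the strand of the gene, the NF-kB consensus (5.89%) was in none of them either, and its other strand was not searched. The RefSeq start and the counted reads did not always coincide: the 5′-most exon bin (an exon or part of one) with at least 3% of the gene's counts began at the RefSeq start in Socs1, 11 bases downstream of it in Socs4, 51 bases downstream in Cish and 180 bases downstream in Socs3. A match is only a run of letters, and sequence outside these windows was not used here.

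Total counts were 109744701 to 162544804 per library. Of the microglia markers, Csf1r (775 ± 34.5 and 807 ± 101 CPM in control and EV-treated libraries, SD, n = 3 each; CPM are counts scaled to library size with TMM factors) and Itgam, in an entry joined with 2 gene models, were abundant in both groups, while Cx3cr1 (336 ± 95.3 and 2.46 ± 0.632) and P2ry12 (3.77 ± 1.14 and 0.0885 ± 0.0334) were near 0 in the EV-treated group. The summed level of 10 microglia markers was 5289 to 6979 CPM in control and 2782 to 2907 CPM in EV-treated libraries, with 1 marker risen and 6 fallen. Summed markers of other cells also differed between the groups: 213 to 440 against 30.6 to 43.8 CPM for 8 oligodendrocyte lineage genes, nearly all from Cspg4 and Mbp, 46.3 to 82.9 against 2.57 to 3.50 CPM for 7 neural stem cell and neuron genes, nearly all from Nes, and 71.4 to 170.2 against 17.3 to 24.0 CPM for 4 endothelial genes. That sum was mostly Flt1, which fell (114 ± 50.8 to 16.9 ± 3.13 CPM), while Pecam1 (0.247 ± 0.0163 to 2.34 ± 0.510 CPM) and Cdh5 (0.129 ± 0.0551 to 1.86 ± 0.566 CPM) rose. The sum was 10.9 to 15.5 against 58.2 to 92.3 CPM for 7 astrocyte genes. Of these, Slc1a2 rose from 0.0952 to 74.8 CPM, Aldh1l1, nearly all of the sum in control and in an entry joined with a gene model, fell from 13.4 to 1.72 CPM, and Gfap was under 0.1 CPM on average in both groups. For 5 fibroblast genes it was 13.6 to 36.4 against 12.8 to 19.0 CPM, where Pdgfrb (0.408 to 3.05 CPM) and Dcn (0.0183 to 0.786 CPM) rose and Col1a1 (8.85 to 3.65 CPM) fell. It was 1.49 to 3.25 against 24.0 to 33.1 CPM for 6 neutrophil and T cell genes, mostly S100a8. Gjb6 and S100a9 were at 0 in all libraries, and the defining markers Sox2, Mog, Olig1, Olig2, Cldn5 and Cd3e were untested for low counts. The part of other cells in the results below was not tested. In bulk RNA, fewer cells of a type and less RNA per cell cannot be told apart.

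Both groups were compared to ask how NSC vesicles alter the transcripts of microglia. Cish, Socs1 and Socs3 were 32.0 to 156 times as high in EV-treated as in control microglia, Socs5 and Socs6 had 0.489 and 0.558 of the control level, and Socs2, Socs4 and Socs7 differed by less than a factor of 1.5. Of the 8 genes, 5 rose and 2 fell at an adjusted p under 0.05 (edgeR's quasi-likelihood test), and the median of their log2 fold changes was 0.50. Of all 16605 entries tested, 33.0% rose and 33.5% fell (66.5% in all), with a median of -0.02, so that a call by itself was common. The 2 groups of libraries did not overlap in 7 of the 8 genes, and in 71.3% of all entries. A rise by a log2 fold change of at least 4 was seen in 3 of the 8 genes and in 4.34% of all entries. With library totals alone as the scale, 3 SOCS genes rose and 2 fell.

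**Figure D1:**
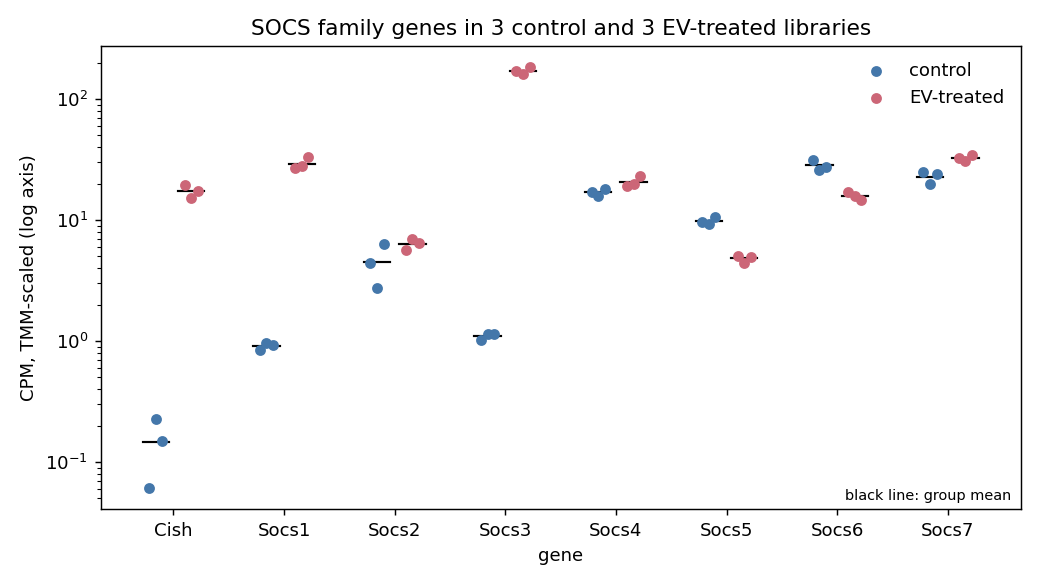
CPM of the 8 SOCS family genes (log axis) in 3 control (blue) and 3 EV-treated (red) libraries, with a black line at each group mean. The groups are widely separated for Cish, Socs1 and Socs3, cross over in the other direction for Socs5 and Socs6, and overlap for Socs2.

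Socs3 (ENSMUSG00000053113, GRCm38 chromosome 11, 117966079 to 117970047, minus strand), whose protein binds the shared receptor chain of the interleukin 6 family, was measured at 1.01, 1.14 and 1.15 CPM in control A, B and C and at 170.0, 162 and 184 CPM in EV-treated A, B and C. Every EV-treated library was more than 100 times as high as every control library. Its mean went from 1.10 ± 0.0777 to 172 ± 11.1 CPM (SD, n = 3 each), and the log2 fold change was 7.29 (SE 0.14, adjusted p = 1.06e-09). Only 1.19% of the entries tested had a higher value.

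Cish (ENSMUSG00000032578, chromosome 9, 107296026 to 107302784, plus strand), a target gene of STAT5 whose protein competes with it at receptors, had 0.0607, 0.228 and 0.149 CPM in control A, B and C. These levels rest on 8, 29 and 28 counts. In EV-treated A, B and C it had 19.4, 15.3 and 17.3 CPM, all far above the controls. The log2 fold change was 6.89 (SE 0.32, adjusted p = 9.02e-08), and its SE was the largest in the family.

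Cish shares its locus with antisense gene models, and 6 of its 16 exon bins overlap bins of Gm17040 and Gm17041 on the minus strand. The overlapping bin of Gm17040 had 221, 138 and 133 counts in EV-treated A, B and C, and the fourth Cish bin, which it covers in part, had 221, 143 and 143. Reads of the 2 strands can therefore not be told apart there. The 10 Cish bins without an overlap had 2, 6 and 8 counts in control A, B and C and 696, 502 and 594 in EV-treated A, B and C, which is the same pattern. No bin of the other 7 genes overlapped a bin of another entry.

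Socs1 (ENSMUSG00000038037, chromosome 16, 10783808 to 10785536, minus strand) encodes a direct inhibitor of JAK kinases. It had 0.843, 0.953 and 0.934 CPM in control A, B and C and 27.0, 27.7 and 32.9 CPM in EV-treated A, B and C, so the groups were far apart and the spread within each was small. The log2 fold change was 5.001 (SE 0.14, adjusted p = 6.07e-09). In GENCODE vM21 the gene reaches further at its 3′ end, to 10782240, and reads in that stretch are not part of the counts.

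Among 9475 named entries of single genes, the pattern over the 6 libraries most like that of Socs1, by the root mean square distance of log2 CPM after centring on the control mean, was that of the endocytic receptor gene Ly75 (0.0486), then Tnfrsf8 (0.0828), the gene of the receptor CD30, and the ubiquitin ligase gene Rnf217 (0.122). Those nearest to Socs3 were the oxygen sensor gene Egln3 (0.163), the adenosine receptor gene Adora2a (0.181) and Acod1 (0.189), which encodes the enzyme that makes itaconate. With only 2 groups, this likeness is mainly one of fold change.

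Socs2, Socs4 and Socs7 differed little between the groups. Socs2 (ENSMUSG00000020027, chromosome 10, 95385362 to 95417180, minus strand), known as a brake on growth hormone signalling, had 4.41, 2.72 and 6.34 CPM in control A, B and C and 5.62, 6.94 and 6.47 CPM in EV-treated A, B and C. Its groups overlapped through control C, the highest control library. It did not pass the test, at 0.49 on the log2 scale (SE 0.26, adjusted p = 0.126). Without control C the value was 0.81, with an adjusted p of 0.0114.

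Socs4 (ENSMUSG00000048379, chromosome 14, 47276931 to 47296098, plus strand), a less studied member linked to the receptor of epidermal growth factor, had 17.0, 15.9 and 17.98 CPM in control A, B and C and 19.0, 19.9 and 23.3 CPM in EV-treated A, B and C. The groups did not overlap but lay close together. Its log2 fold change of 0.29 (SE 0.12) passed by little, with an adjusted p of 0.0494. The call was lost when any 1 of the 6 libraries was left out (0.19 to 0.33, adjusted p = 0.0527 to 0.186), with upper-quartile scaling (0.17, adjusted p = 0.231) and without a filter (0.21, adjusted p = 0.259), and the direction turned with library totals alone (-0.073, adjusted p = 0.642).

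Socs7 (ENSMUSG00000038485, chromosome 11, 97362551 to 97398542, plus strand), whose protein binds insulin receptor substrates, had 24.8, 19.8 and 23.9 CPM in control A, B and C and 32.6, 30.5 and 34.3 CPM in EV-treated A, B and C. All EV-treated libraries lay above all controls. It rose by 0.51 on the log2 scale (SE 0.12, adjusted p = 0.00334), or 0.14 (adjusted p = 0.315) with library totals alone, a scale on which the median of all entries was -0.38.

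Socs5 and Socs6 fell. Socs5 (ENSMUSG00000037104, chromosome 17, 87107679 to 87137583, plus strand), known for acting on the receptors of interleukin 4 and of epidermal growth factor, had 9.68, 9.28 and 10.5 CPM in control A, B and C and 5.09, 4.42 and 4.91 CPM in EV-treated A, B and C. The groups were clearly apart, and the log2 fold change was -1.03 (SE 0.13, adjusted p = 6.82e-05). Socs6 (ENSMUSG00000056153, chromosome 18, minus strand), linked to signalling by insulin and by the receptor Kit, had 31.4, 26.0 and 27.5 CPM in control A, B and C and 16.9, 15.8 and 14.6 CPM in EV-treated A, B and C. Here too all EV-treated libraries lay below all controls, and the fitted difference was -0.84 on the log2 scale (SE 0.11, adjusted p = 0.000127).

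**Figure D2:**
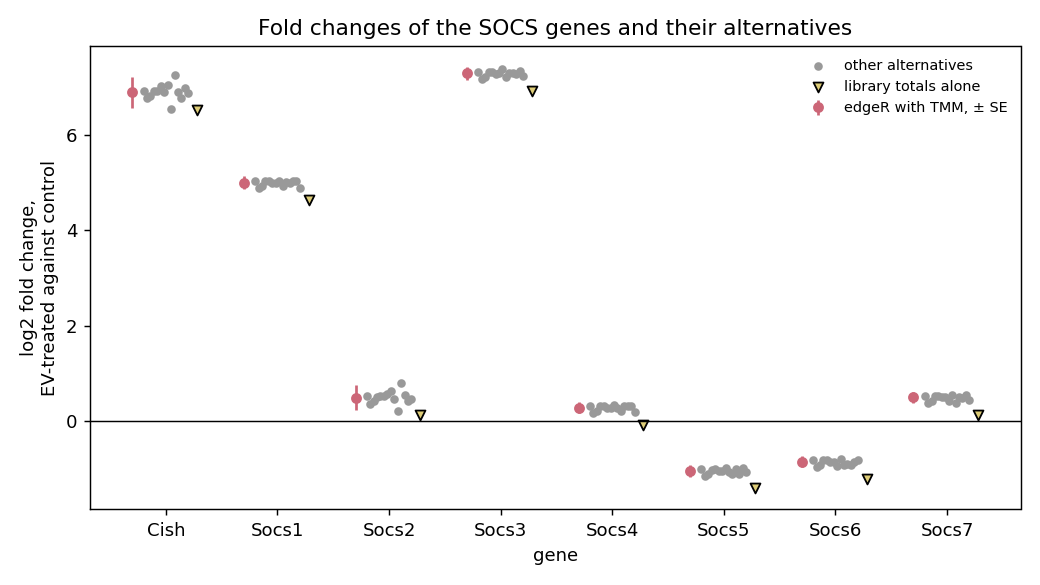
Log2 fold changes of the 8 genes, EV-treated against control: the edgeR estimate with TMM scaling and its SE (red), the value with library totals alone (triangle) and the other alternatives (grey). Cish, Socs1 and Socs3 stay between 4.64 and 7.38 throughout, Socs5 and Socs6 stay below 0, and Socs4 lies beside 0.

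Levels of different genes were compared as CPM per kilobase of summed exon bins. This length includes exons of noncoding transcripts with few counts, and reads counted in several bins add to the level. Both differ between genes. Socs2, for example, was divided by 9531 bases, of which 2305 lie in a bin with 3 to 18 counts per library. The order and the overlaps below hold for this length only. In control libraries the order was Socs6 (3.16 to 3.82 CPM per kilobase), Socs7 (2.73 to 3.42), Socs4 (2.32 to 2.62), Socs5 (2.11 to 2.40), Socs1 (0.691 to 0.781), Socs2 (0.285 to 0.666), Socs3 (0.349 to 0.396) and Cish (0.00946 to 0.0356). The ranges of neighbours overlapped for Socs6 and Socs7, for Socs4 and Socs5 and for Socs2 and Socs3. In EV-treated libraries the order was Socs3 (56.0 to 63.6 CPM per kilobase), Socs1 (22.1 to 27.0), Socs7 (4.20 to 4.72), Socs4 (2.77 to 3.39), Cish (2.39 to 3.02), Socs6 (1.77 to 2.05), Socs5 (1.01 to 1.16) and Socs2 (0.589 to 0.729), and only Socs4 and Cish overlapped among neighbours. With this length Cish, in spite of its fold change, came to a level near that of Socs4. Its length of 6419 bases includes a noncoding bin of 2120 bases with 50, 29 and 56 counts in EV-treated A, B and C. In the Cish bin with the most counts, these libraries had 837, 625 and 831 counts over 1392 bases. That of Socs4 had 2124, 1995 and 2680 counts over 6582 bases, fewer per base. The nearness to Socs4 thus depends on the length used. That Cish bin also overlaps bins of Gm17041.

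The family's make-up followed from the levels in CPM per kilobase and likewise holds for this length only. The 8 genes summed to 11.8 to 13.5 CPM per kilobase in control and to 91.8 to 104.9 in EV-treated libraries. Socs4, Socs5, Socs6 and Socs7 together held 88.7%, 87.3% and 86.3% of that sum in control A, B and C and 11.02%, 10.9% and 10.5% in EV-treated A, B and C. Cish, Socs1 and Socs3 held 7.81%, 10.3% and 8.78% in the controls and 88.4%, 88.3% and 88.9% in the EV-treated libraries. Socs3 alone went from 2.96% ± 0.372 to 61.2% ± 0.677 (SD, n = 3 each). Counting only bins with at least 10 counts as length, its share was 2.84% and 60.7%.

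**Figure D3:**
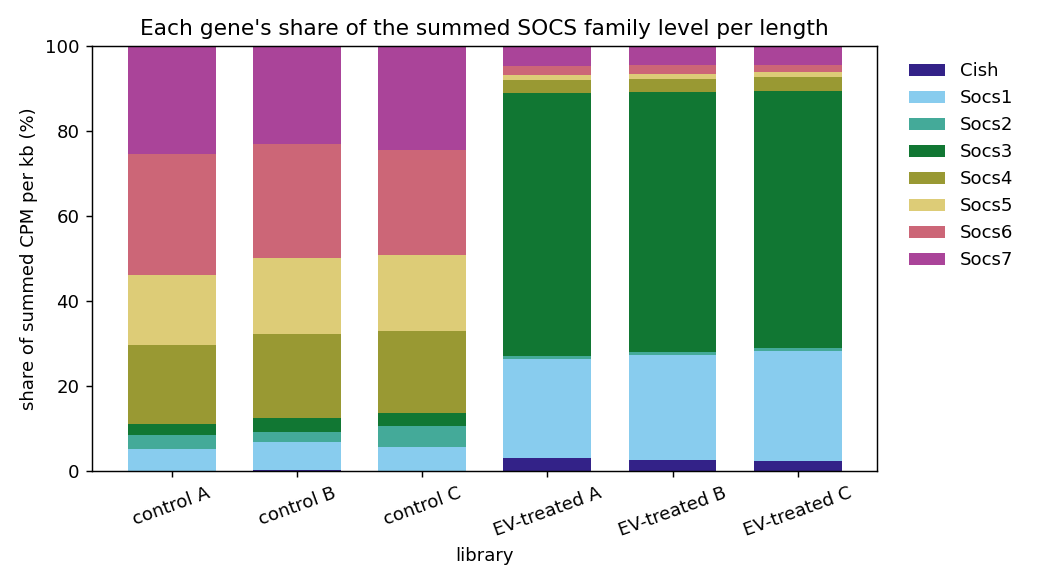
Share of each gene in the summed CPM per kilobase of the SOCS family (stacked to 100%), by library. Socs4 to Socs7 fill 86.3% to 88.7% of the control bars, and Socs3 with Socs1 most of the EV-treated bars.

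Use of exon bins within genes was compared to see whether parts of a SOCS gene moved apart from the rest. Of 98 bins in the 8 genes 62 could be tested and 2 were called at an adjusted p under 0.05 (diffSpliceDGE of edgeR), both in Socs7, against 4.19% of all 198361 bins tested. This share is near the background, so it says nothing particular of the family. The fourth Socs7 bin (97376997 to 97377098), a coding exon in GENCODE, had 10, 1 and 20 counts in control A, B and C and 36, 20 and 38 in EV-treated A, B and C. It held 0.263% ± 0.205 of the gene's counts in control and 0.778% ± 0.175 in EV-treated libraries, and its log2 fold change relative to the rest of the gene was 1.42 (adjusted p = 0.0334). The call was lost without control A (adjusted p = 0.145), control B (0.46), EV-treated A (0.157) or EV-treated C (0.0979).

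The fifth Socs7 bin (97377437 to 97377686), an exon of a noncoding transcript (Socs7-202), had 6, 3 and 6 counts in control A, B and C and 24, 25 and 24 in EV-treated A, B and C. All EV-treated libraries were above all controls. Its relative log2 fold change was 2.04 (adjusted p = 0.00298). The third bin, the coding exon before these, had a relative value of 0.54 and did not pass (adjusted p = 0.243). Neither called bin was tested when at least 50 counts in 3 libraries were required. In Cish, Socs1 and Socs3 none of 17 tested bins was called. The tested Cish bins had at most 9 counts in any control library, and the first Socs3 bin had 0, 0 and 2 in control A, B and C. A change in use could hardly be called in such bins.

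**Figure D4:**
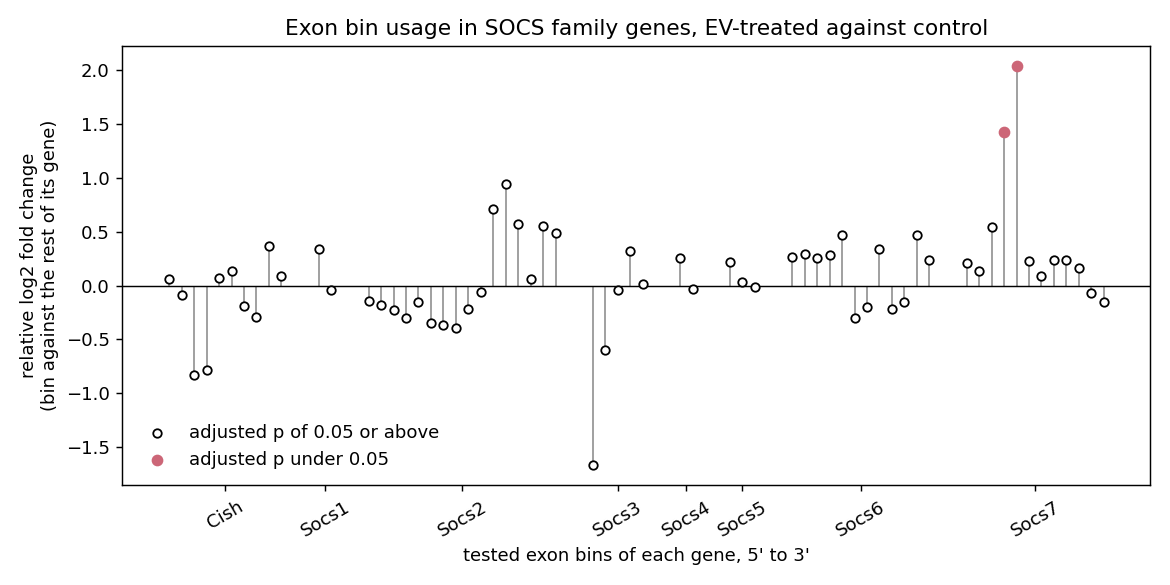
Relative log2 fold change of each tested exon bin against the rest of its gene, bins ordered 5′ to 3′ within each of the 8 genes. The 2 called bins (red) are neighbours in Socs7, at 1.42 and 2.04; all others are open circles.

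Genes around the SOCS family were taken from lists that were chosen with earlier results of these data known. Their counts are given beside the 33.0% of all entries that rose and the 33.5% that fell. Lists chosen in this way cannot serve as a test of enrichment. Cytokines that signal through JAK and STAT are the inputs that SOCS proteins limit. Of 26 in the list 18 were tested, of which 16 rose and none fell. Il12a, Csf2, Tslp, Il10 and Il23a had at most 9 counts in any control library. They passed the filter only through the EV-treated libraries and could only be called as rises, so part of this count was set in advance. Cntf, also among the rises, is in an entry joined with Zfp91. Their median was 4.71 on the log2 scale, and 4.28 once Il12a, at 0 in all controls, was set to its lower bound (against 3 counts per library). Il6 went from 0.382 ± 0.0766 to 748 ± 37.0 CPM. Il12b, a subunit of interleukins 12 and 23, went from 0.617 ± 0.0476 to 952 ± 77.8 CPM, and Csf3, the growth factor of granulocytes, from 0.712 ± 0.0161 to 1032 ± 121 CPM. Ifnb1 and Ifng, the interferon ligands in the list, were not tested for low counts, and Ifng was at 0 in both groups.

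Of 31 tested entries of receptors on which SOCS proteins act, 20 rose and 10 fell, with a median of 0.62 (33.0% and 33.5% of all entries, median -0.02), and 14 rose and 11 fell with library totals alone. Il2ra and Lepr, at 0 to 2 counts in the controls, passed the filter only through the EV-treated libraries and could only rise. The growth hormone receptor gene Ghr rose by 5.95 (SE 0.23), from 0.244 ± 0.0812 to 15.4 ± 0.992 CPM. Csf2rb, the signalling chain for the cytokine GM-CSF, rose by 2.46 in an entry joined with a microRNA gene, and Il4ra, the receptor gene of interleukin 4, by 2.43. The interleukin 6 receptor gene Il6ra fell from 35.3 ± 3.42 to 3.55 ± 0.205 CPM, or -3.31 on the log2 scale (SE 0.12). Il12rb2 (-2.80) and Il11ra1 (-1.45) fell as well. Il6st, the shared chain that the Socs3 protein binds, was chosen after its values were seen: it fell from 186 ± 24.0 to 131 ± 13.5 CPM (-0.51, SE 0.13, adjusted p = 0.00584).

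JAK kinases and STAT factors carry the signal inside the cell. Of 10 entries 8 rose and 1 fell, with a median of 1.03. Jak2 went from 38.5 ± 1.95 to 235 ± 14.1 CPM (2.61, SE 0.11) and Stat3, an inducer of Socs3, from 130 ± 10.3 to 349 ± 10.4 CPM (1.42, SE 0.11). Tyk2 fell, at -0.67 (SE 0.09).

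Of 12 other brakes on this pathway, 6 fell and 3 rose (median -0.34). Of all entries 33.5% fell and 33.0% rose, so calls in both directions are no feature of this list. The phosphatase gene Ptpn2 rose by 2.32 (SE 0.11), Usp18, an inhibitor at the interferon receptor, by 2.13 and the SUMO ligase gene Pias4 by 0.79. The adaptor gene Sh2b3 (-1.59) and the phosphatase genes Ptpn6 (-1.42) and Ptpn1 (-0.86) fell.

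The SOCS box works through a ubiquitin ligase of elongins, Cul5 and Rnf7. Among 7 partner genes there were 3 rises and no fall (median 0.19). Arih2, a ligase that works with Cul5, went from 44.8 ± 0.560 to 173 ± 13.5 CPM (1.95, SE 0.10), Ube2f rose by 0.84 and the elongin gene Eloc by 0.55. With library totals alone Eloc had 0.18 and did not pass (adjusted p = 0.247). Among 17 other SOCS box genes tested there were 5 rises and 6 falls (median 0.13), or 3 and 7 with library totals alone. These shares are near those of all entries (33.0% rose and 33.5% fell) and are no result about the list. Spsb4 rose by 2.98 (SE 0.14), Wsb1 by 1.31 and Asb1 by 0.77, while Asb10 (-7.08), Spsb1 (-3.03) and Asb13 (-2.86) fell. Asb10, at 2 to 8 counts in EV-treated libraries, passed the filter only through the controls and could only fall. The number that rose was also 3 with upper-quartile scaling, without a filter, without control B and without EV-treated B.

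Of 7 tested genes for proteins outside the JAK pathway that SOCS proteins are reported to bind or degrade, 4 rose and 3 fell (median 0.50). As 66.5% of all entries were called, about equally in each direction, this split says nothing particular of the list. Traf6, an adaptor of Toll-like receptor signalling, rose by 3.53 (SE 0.11), the focal adhesion kinase gene Ptk2 by 1.04 and the insulin receptor substrate gene Irs2 by 0.88. The kinase gene Map3k5 (-2.18), the Toll-like receptor adaptor gene Tirap (-0.80) and Irak1 (-0.58), in an entry joined with microRNA genes, fell.

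**Figure D5:**
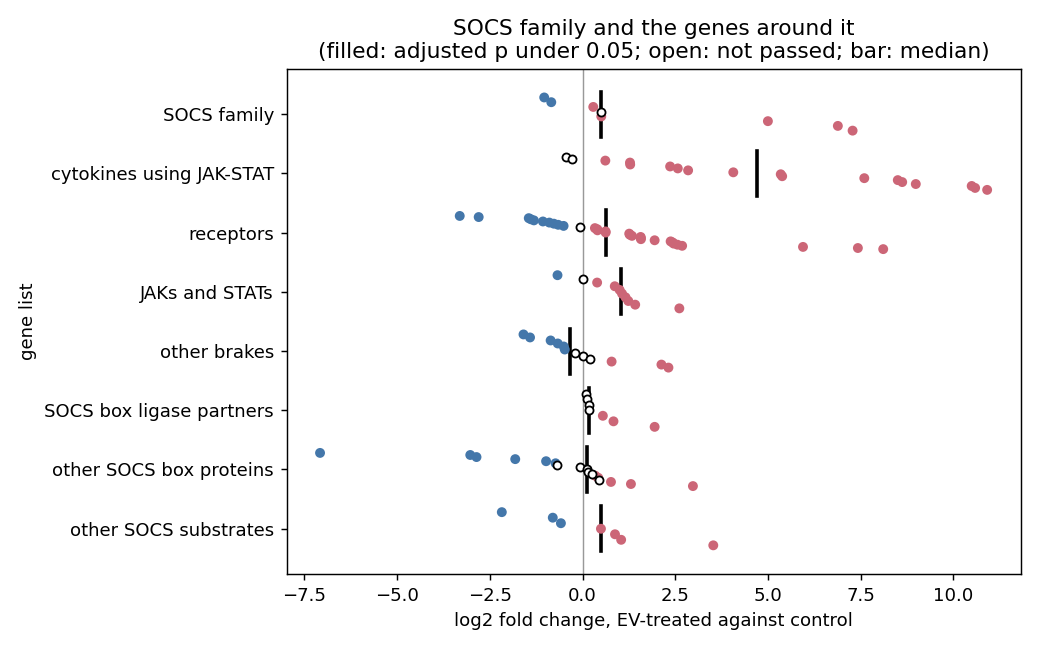
Log2 fold changes, EV-treated against control, of tested entries in the SOCS family and 7 lists of genes around it (filled: adjusted p under 0.05; open: not passed; black bar: median of the fitted values). The cytokines have the highest median, 4.71. The SOCS box ligase partners all lie above 0, up to 1.95 for Arih2, and every other list has entries on both sides of 0.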

How the data were processed

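Per the labels' protocols, Trizol was used for extraction, polyadenylated RNA was selected and NEBNext Ultra reagents gave the libraries. Trimmomatic 0.36, STAR, Subread, DESeq2 and GRCm38 are listed in the submitters' processing notes; the sources used here give no settings, annotation release or strand setting. The authors deposited raw counts per exon bin, per the file headers. A read can be counted in several bins, so a gene's sum is not a number of distinct reads, and bins of a gene are not independent.

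Bin counts were added up within each of 48005 entries, and symbols were found for 49298 of 49644 identifiers. The 6 single-sample files equalled the series table. Entries were filtered with filterByExpr, scaled by TMM (factors of 0.855 to 1.16) and compared with edgeR 4.0.16 (glmQLFit, glmQLFTest, R 4.3.3), with Benjamini-Hochberg adjustment over all 16605 entries, a threshold of 0.05 and 2-sided tests. SEs are the log2 fold change over the square root of F. Bins were compared with diffSpliceDGE over all bins that passed the same filter. The gene and bin tests, DESeq2 1.42.0 and limma-voom (limma 3.58.1) were tested on simulated data. Only a small part of the genes or bins was changed there, equally in both directions. Such data cannot show how the scaling and calls hold where most entries differ, as here. Other settings tried were scaling by RLE, by upper quartiles or by totals alone, no filter or one of 50 counts in 3 libraries, DESeq2, limma-voom, a replicate block by letter, leaving out each library in turn, and using only the bin with the most counts. List medians count a joined entry once; genes at 0 in a group were also set to a bound against 3 counts per library, which covers counting error only.

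The members and lists were chosen with earlier results of these data known. Named genes were the 8 members and, from each list, up to 3 with the highest and 3 with the deepest fold change among entries that passed the test, whose groups did not overlap and whose log2 CPM averaged 1 or more. An entry that this rule names is not reported here. Promoter sequences are from RefSeq (GRCm38.p6).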

Additional observations from a re-analysis of the deposited data

How the results depend on the processing

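Cish, Socs1, Socs3, Socs5 and Socs6 kept their direction and call under all 15 alternatives run for them, with log2 fold changes of 6.52 to 7.26, 4.64 to 5.04, 6.92 to 7.38, -1.40 to -0.97 and -1.21 to -0.78. With library totals alone 3 SOCS genes rose in place of 5, Socs4 was at -0.0728, the median of all entries was -0.38 in place of -0.02, and 34.01% of the calls were rises in place of 49.7%. Upper-quartile scaling put that median at -0.14 and no filter at 0.17. With each library left out in turn, 4 to 5 SOCS genes rose, 2 fell, and 1 to 2 of their bins were called. With the stricter filter 0 SOCS bins were called, as neither Socs7 bin was among the bins tested. Counting only bins with at least 10 counts as length moved Socs6 to 3.96 CPM per kilobase in control and 2.21 in EV-treated libraries and Cish to 3.08 in EV-treated libraries. This rule still kept long bins with few counts: the length was 5622 in place of 6419 bases for Cish and 8836 in place of 9531 for Socs2. The labels do not say that a letter marks a shared culture, so the letters were not taken as pairs in the main fit. Same-lettered libraries correlated in their deviations from the group means at 0.035 (A), 0.167 (B) and 0.210 (C). Each library correlated best with its own letter, though EV-treated A correlated nearly as well with control B (0.0341). The numbers in the column names differ between control and EV-treated libraries of the same letter. Whether the letters are pairs therefore stays unsettled. With the replicate block 5 SOCS genes rose, 2 fell and 2 bins were called, and 5758 entries rose and 5851 fell in place of 5482 and 5555. Depth limits Cish in control, at 8 to 29 counts, and the 2 called Socs7 bins, at 1 to 20 counts.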
